A study of Mus musculus with 5 samples.

Results

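Aminoacyl-tRNA synthetases join each amino acid to the tRNA that reads its codons, and so supply every ribosome. The cytosol and the mitochondrion use mostly separate enzymes, all encoded in the nucleus, and by the usual naming a symbol ending in 2 marks the mitochondrial one. Gars and Kars are exceptions, since each gene is known to supply both compartments, and Eprs joins 2 activities, for glutamate and proline, in 1 protein. Several of the cytosolic enzymes sit together in the multisynthetase complex, and the others are outside it. Part of the family is known to be induced by the transcription factor ATF4 when amino acids run short, and part by MYC in growing cells. The genes were taken by symbol from the deposited normalized table: 36 of its 27526 genes, of which 20 were cytosolic (8 of the multisynthetase complex and 12 others) and 16 mitochondrial. All 36 were found, and all 36 passed the filter on low counts.

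Transcripts were profiled in mouse leukaemia stem cells labelled Kit+ from an AML1-ETO9a model, in which a shortened form of the AML1-ETO fusion drives acute myeloid leukaemia. There were 2 libraries labelled Plcg1 +/+ (wild-type 1 and 3) and 3 labelled Plcg1 -/- after conditional deletion (deleted 2, 4 and 6), and both groups carry the fusion per the labels. Plcg1 encodes phospholipase C-γ1. The labels name no Cre driver, age or sex, and do not say whether libraries came from separate mice, so each p-value speaks only for the spread of these 5 samples, which could be technical. Per its title, the series asked about the need for Plcg1 in the self-renewal of these cells.

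Gene counts per library ran from 37306507 to 57133771. Plcg1 itself did not separate the labels: it measured 22.1 and 34.0 CPM (wild-type 1 and 3; counts scaled to a library of fixed size, with TMM factors) against 53.0, 26.9 and 37.1 CPM (deleted 2, 4 and 6). Counts per gene can hold reads from exons outside a deleted part, and the labels do not say which part was deleted, so they do not check the deletion, and group names refer to labels. Kit, the marker in the cell type label, measured 26.8 and 32.1 CPM (wild-type 1 and 3), then 672 (deleted 2), 304 (deleted 4) and 3.08 CPM in deleted 6, against the label of the last. Deleted 6 stood apart in the proliferation, macrophage and neutrophil granule lists too, while in the mast cell list it was near wild-type 3. The summed proliferation list (12 genes) measured 2964 and 3271 CPM (wild-type 1 and 3), then 2114 (deleted 2), 1951 (deleted 4) and 110.1 CPM in deleted 6, and all 12 of its genes were lower in every deleted library than in both wild-type libraries, where 23.7% of all genes were. The summed macrophage list (11 genes) measured 18314 and 18121 CPM (wild-type 1 and 3), then 22655 (deleted 2), 41330 (deleted 4) and 137895 CPM in deleted 6. The neutrophil granule list (10 genes) measured 18649 and 20653 CPM (wild-type 1 and 3), then 14554 (deleted 2), 16525 (deleted 4) and 123 CPM in deleted 6. The mast cell list (9 genes) measured 53.4 and 94.3 CPM (wild-type 1 and 3), then 10382 (deleted 2), 4730 (deleted 4) and 99.6 CPM in deleted 6. No gene of these 4 lists was at 0 counts in any library. Among 5 lymphocyte genes 4 were at 0 in deleted 6, against 1, 1, 2 and 1 in wild-type 1, wild-type 3, deleted 2 and deleted 4. Among 9 erythroid genes 3 were at 0 in deleted 6, against 2, 0, 0 and 0 in the same order. The part of cell type in the synthetase values below was not tested, and in such bulk samples fewer cells of a type and less RNA per cell cannot be told apart.

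The promoters below are shown because these 5 members hold a candidate ATF4 site close to the start of transcription. The motif searched was the C/EBP-ATF response element, spelled TGATGNAA, on both strands of the RefSeq window from 250 bases before to 50 after the start (GRCm38.p6). A window was found for 27 of the 36 members, 13 cytosolic and 14 mitochondrial. Rars, Nars, Cars, Hars, Lars, Wars, Vars, Hars2 and Pars2 are the remaining members. Each sequence runs 5′ to 3′ on the strand of its gene, with 150 bases before the start and 29 from it. Capitals mark matches of the response element (TTGCATCA, TTTCATCA or TGATGCAA as read here) and of the E-box CACGTG, the motif of MYC and its partner MAX.
Aars, chr8:111033692-111033870, plus strand: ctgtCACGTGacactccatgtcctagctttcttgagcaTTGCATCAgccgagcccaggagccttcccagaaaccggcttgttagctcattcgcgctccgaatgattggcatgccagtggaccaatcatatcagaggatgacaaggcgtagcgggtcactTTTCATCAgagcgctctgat
Gars, chr6:55037851-55038029, plus strand: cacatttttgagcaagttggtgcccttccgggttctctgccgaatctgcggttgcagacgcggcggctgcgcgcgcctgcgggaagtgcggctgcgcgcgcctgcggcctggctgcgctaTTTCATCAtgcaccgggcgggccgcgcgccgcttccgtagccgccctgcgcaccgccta
Iars, chr13:49681980-49682158, plus strand: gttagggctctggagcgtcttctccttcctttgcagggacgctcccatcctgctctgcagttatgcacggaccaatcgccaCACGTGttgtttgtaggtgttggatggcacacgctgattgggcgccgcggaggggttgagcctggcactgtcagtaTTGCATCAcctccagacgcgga
Tars, chr15:11399630-11399808, minus strand: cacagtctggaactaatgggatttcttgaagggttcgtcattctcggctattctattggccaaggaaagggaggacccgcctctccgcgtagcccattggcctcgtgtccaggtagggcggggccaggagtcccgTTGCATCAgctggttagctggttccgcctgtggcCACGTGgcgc
Yars, chr4:129189753-129189931, plus strand: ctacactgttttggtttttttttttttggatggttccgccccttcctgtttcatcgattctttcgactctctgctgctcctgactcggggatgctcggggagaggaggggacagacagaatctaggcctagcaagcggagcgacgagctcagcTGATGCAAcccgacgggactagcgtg

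The response element was found in these 5 of the 13 cytosolic members with a window and in 0 of the 14 mitochondrial ones, where 3.97% of all 32851 RefSeq windows of this length hold it. Aars2 has 2 windows, and each of the others has 1. The E-box was found in 4 cytosolic windows (Aars, Iars, Tars and Farsb) and 1 mitochondrial window (Ears2), where 7.15% of all windows hold it. The motif of the nuclear respiratory factor NRF1 was in no window of the 27 members, where 0.971% of all windows hold it. No match of 1 motif overlapped another in these windows. A match is a string of letters and not a bound site, and no match says only that these letters are not in the window. All 5 members with the element were lowest in deleted 6, as given with their groups, but so were 18 of all 20 cytosolic members. Gars, Iars, Tars and Yars shared 1 order, falling from wild-type 3 through wild-type 1, deleted 2 and deleted 4. Aars differed from them, being highest in deleted 2, at 468 CPM.

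Per kilobase of mRNA, the cytosolic transcripts were the more abundant in nearly every amino acid. Levels between genes are compared as CPM per kilobase of the principal mRNA, averaged over the 5 libraries. Cytosolic members ran from 26.6 (Qars, for glutamine) to 149.9 (Nars, for asparagine), with a median of 68.5, and mitochondrial members from 1.72 (Mars2, for methionine) to 46.8 (Lars2, for leucine), with a median of 11.8. Nars stood at 167, 164, 152, 168 and 98.5 CPM per kilobase in wild-type 1, wild-type 3, deleted 2, deleted 4 and deleted 6. Mars2 stood at 1.98, 1.94, 1.64, 1.82 and 1.22 CPM per kilobase in the same order. Of 17 pairs of a cytosolic and a mitochondrial enzyme for the same amino acid, 16 had the cytosolic transcript higher per kilobase in every library. Leucine was the exception, with a Lars to Lars2 ratio of 0.904 and 1.48 in wild-type, 1.15 and 0.996 in deleted 2 and 4, and 0.544 in deleted 6. With merged exon lengths in place of the principal mRNA all 17 pairs had the cytosolic one higher. By that length the mitochondrial extremes were other genes, Wars2 (1.45) and Rars2 (20.2), while Qars and Nars remained the cytosolic ones. A stretch of 72 bases of the Lars2 mRNA matches the transcript Gm15564 at 98.6% identity, and Gm15564 was itself at 55.4 to 92.0 CPM, so the Lars2 level is uncertain.

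**Figure D1:**
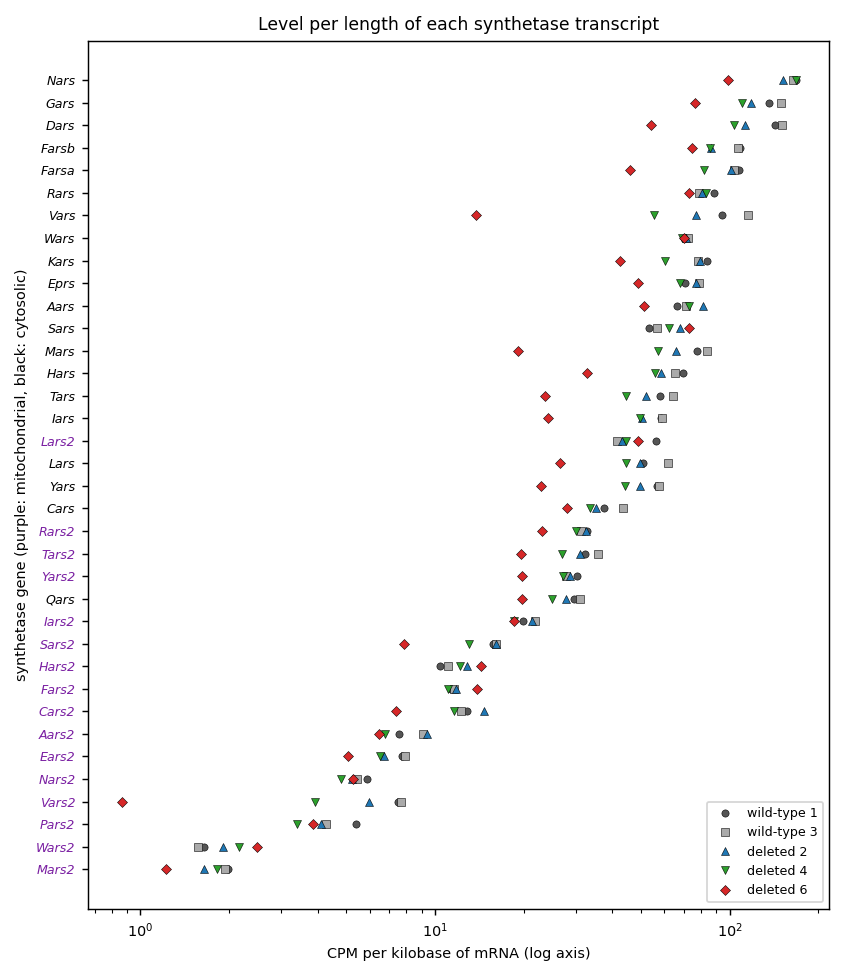
CPM per kilobase of mRNA (log axis) of each of the 36 synthetase transcripts in the 5 libraries, ordered by their mean, with mitochondrial genes named in purple and cytosolic genes in black; each point is 1 library. Nars leads at a mean of 149.9 and Mars2 is lowest at 1.72, and the compartments overlap from Qars, at 26.6, up to Lars2, at 46.8. Rars2, Tars2 and Yars2 also lie above Qars.

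The cytosolic synthetases summed lower in each library labelled deleted, least in deleted 2 and most in deleted 6, but no single member passed the test. The mitochondrial ones were not lower in deleted 2, where 8 of 16 lay below the wild-type mean. Reads of the 36 genes made up 0.611% and 0.614% of gene counts in wild-type 1 and 3, 0.552% and 0.475% in deleted 2 and 4, and 0.253% in deleted 6. Cytosolic transcripts summed to 4729 and 4996 CPM (wild-type 1 and 3), then 4443 (deleted 2), 4055 (deleted 4) and 2663 CPM in deleted 6. Mitochondrial ones summed to 764 and 723 CPM (wild-type 1 and 3), then 718 (deleted 2), 658 (deleted 4) and 607 CPM in deleted 6. In both sums the 3 deleted libraries were the lowest, but the mitochondrial order rests on Lars2. Without Lars2 the mitochondrial sum was 545 and 562 CPM (wild-type 1 and 3), then 551 (deleted 2), 485 (deleted 4) and 417 CPM in deleted 6, so deleted 2 lay between the wild-type libraries. The ratio of the sums was 6.19 and 6.91 in wild-type, 6.18 and 6.16 in deleted 2 and 4, and 4.38 in deleted 6, so deleted 6 alone stood well away from the rest. With 2 and 3 libraries the smallest two-sided p of an exact permutation test is 0.1, so none is given.

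In edgeR's quasi-likelihood test across all 5 libraries, 0 of the 20 cytosolic and 0 of the 16 mitochondrial members were called, where 0.0% of 16120 genes were called higher and 0.0% lower. The smallest adjusted p among members was 0.367. At an unadjusted p under 0.05 there were 0 members, where 14.9% of all genes had one. DESeq2 called 0 members, against 4.53% of genes called higher and 2.14% lower. With limma-voom and sample weights 0 members were called, against 7.63% and 5.87% of genes. Direction was less even than among all genes: 19 of 20 cytosolic and 13 of 16 mitochondrial members had a negative log2 fold change (deleted minus wild-type), against 49.4% of all genes tested. The median log2 fold change was -0.44 over cytosolic members (-0.45 in the multisynthetase complex and -0.42 in the others), -0.16 over mitochondrial members and 0.01 over all genes tested. All 3 deleted libraries were under both wild-type ones in 13 cytosolic and 6 mitochondrial members, where 23.7% of all genes did, and above both in 1 cytosolic and 2 mitochondrial members, where 22.4% of all genes did. Members share their libraries and are not independent of each other.

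Without deleted 6 the same direction was seen at a smaller size. The median was -0.22 over cytosolic and -0.08 over mitochondrial members, against -0.01 over all genes. Again 0 members were called, where 7.89% of 15787 genes were called higher and 5.07% lower, and the lowest adjusted p of a member was 0.0853. Unadjusted, p was under 0.05 in 4 cytosolic members (Vars, Dars, Mars and Farsb) and 1 mitochondrial member (Vars2), each with a negative fold change, and in 28.6% of all genes. Deleted 2 and 4 lay below both wild-type libraries in 13 cytosolic and 6 mitochondrial members, where 29.4% of genes did, and above in 2 and 2, where 28.8% did. In that fit the 95% interval of the log2 fold change lay within -1 and 1 for 34 of 36 members, where it did for 7949 of 15787 genes. With all 5 libraries it did for 20 of 36 members and 4461 of 16120 genes. Lanes are named here by the lane number given with each library. The sample titles name no lane or sequencing run, so libraries with equal numbers could come from different runs. Lane 4 thus stands for a shared number and not for a known shared run. Only lane 4 of the sequencer held libraries of both labels (wild-type 3, deleted 2 and deleted 4), and there 27 of 36 members had a negative log2 fold change and 0 were called, where 1.26% of genes were called higher and 0.779% lower. There the single wild-type library is assumed to have the spread of the 2 deleted ones. Wild-type 1 was the only library in lane 3, and deleted 6 the only one in lane 5. What sets either of them apart cannot be told from its lane.

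**Figure D2:**
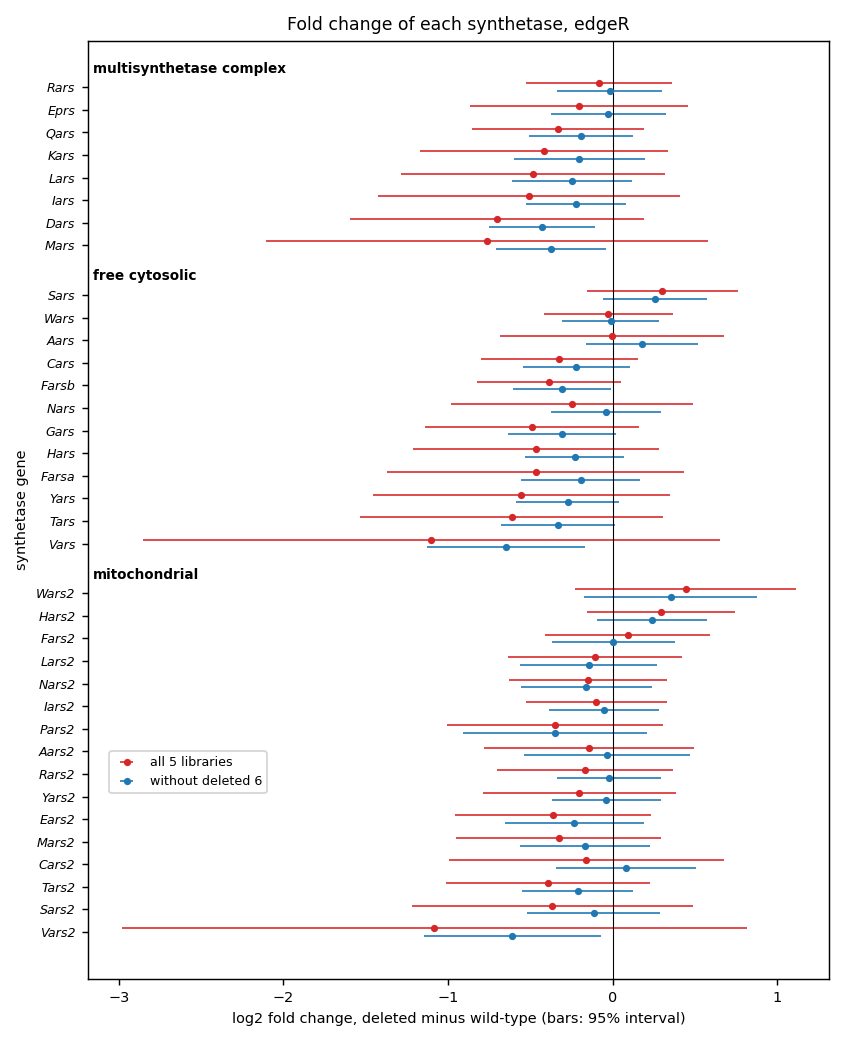
Log2 fold change of each synthetase, deleted minus wild-type, from edgeR with its 95% interval, with all 5 libraries (red) and without deleted 6 (blue), by group. With all 5 libraries every interval holds 0, and without deleted 6 those of Vars, Dars, Mars, Farsb and Vars2 do not, though none passed after adjustment over all genes.

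The multisynthetase complex holds 8 members, and all 8 were lowest in deleted 6, as were 10 of the 12 other cytosolic members. The share of all genes lowest in deleted 6 was not counted. Dars charges tRNA with aspartate (ENSMUSG00000026356.14; mm10 chromosome 1, 128363707 to 128417368, minus strand). It measured 311 and 327 CPM (wild-type 1 and 3) against 245, 225 and 118 CPM (deleted 2, 4 and 6), so the groups did not overlap. For Dars edgeR gave a log2 fold change of -0.70 ± 0.35 (SE; adjusted p = 0.399). Leaving out deleted 6 gave -0.43 ± 0.13 (adjusted p = 0.0877). Mars charges the methionine tRNAs that start and extend proteins (chromosome 10, 127296221 to 127311786, minus strand). It measured 228 and 246 CPM (wild-type 1 and 3), then 193 (deleted 2), 168 (deleted 4) and 56.3 CPM in deleted 6, which is 23.8% of the wild-type mean. For Mars edgeR gave -0.76 ± 0.53 (adjusted p = 0.504), and -0.38 ± 0.14 when deleted 6 was left out (adjusted p = 0.135). Mars overlaps Ddit3 on the opposite strand by 68 bases, and reads there cannot be told apart without strand. Qars, for glutamine, was the least abundant cytosolic member per length and varied less, at 83.0 and 87.2 CPM (wild-type 1 and 3) against 77.8, 69.7 and 55.2 CPM (deleted 2, 4 and 6) (log2 fold change -0.33 ± 0.21, adjusted p = 0.470).

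Of the other 5 members of the complex, Iars and Lars ordered the libraries as Dars, Mars and Qars did, and Kars, Eprs and Rars did not. Iars, for isoleucine, measured 259 and 262 CPM (wild-type 1 and 3) against 224, 219 and 107 CPM (deleted 2, 4 and 6). About 49.9% of its mRNA matches the gene Gm4849 closely (96.0% identity in the longest stretch), and the count files set reads with several alignments apart from genes, so its level is uncertain. Lars, for leucine, also had groups that did not overlap, while Kars (lysine), Eprs (glutamate and proline) and Rars (arginine) had groups that did. Rars differed least, at 187 and 166 CPM (wild-type 1 and 3) against 170.3, 176 and 154 CPM (deleted 2, 4 and 6) (log2 fold change -0.08 ± 0.17, with a 95% interval from -0.53 to 0.36).

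Among the 12 cytosolic synthetases outside the complex, Vars had the lowest level in deleted 6 relative to wild-type. Vars, the valine enzyme (ENSMUSG00000007029.15; chromosome 17, 35000987 to 35016322, plus strand), measured 388 and 476 CPM (wild-type 1 and 3), then 317 (deleted 2), 229.8 (deleted 4) and 56.8 CPM in deleted 6. The group means of Vars, 432 ± 62.0 CPM (SD, n = 2) for wild-type and 201 ± 133 CPM (SD, n = 3) for deleted, come from groups that did not overlap. For Vars edgeR gave a log2 fold change of -1.10 ± 0.69 (SE; adjusted p = 0.476). Leaving out deleted 6 gave -0.65 ± 0.20 (adjusted p = 0.0853). Farsb had the smallest unadjusted p of all members. It encodes the β chain of the phenylalanine enzyme (chromosome 1, 78417975 to 78488897, minus strand), and measured 221 and 217 CPM (wild-type 1 and 3) against 176, 175 and 152 CPM (deleted 2, 4 and 6). For Farsb edgeR gave -0.39 ± 0.17 (adjusted p = 0.367). Farsb overlaps Sgpp2 on the opposite strand by 2315 bases, and 12.3% of its mRNA is shared with that gene, so reads there cannot be told apart. The α chain, Farsa, measured 196 and 188 CPM (wild-type 1 and 3) against 184, 149 and 83.9 CPM (deleted 2, 4 and 6), so the groups did not overlap here either. Per kilobase the β and α chains, which work as 1 enzyme, stood at 109 and 108 CPM in wild-type 1 and at 74.5 and 46.0 CPM in deleted 6.

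Gars, Cars and Tars followed the same order, with smaller spreads than Vars. Gars, for glycine (chromosome 6, 55038007 to 55079500, plus strand), measured 323 and 355 CPM (wild-type 1 and 3) against 282, 262 and 181 CPM (deleted 2, 4 and 6) (log2 fold change -0.49 ± 0.26, edgeR adjusted p = 0.412). Cars, for cysteine, measured 121 and 139 CPM (wild-type 1 and 3) against 113, 108 and 90.1 CPM (deleted 2, 4 and 6) (-0.32 ± 0.19, adjusted p = 0.451). Tars, for threonine, measured 232 and 258 CPM (wild-type 1 and 3), then 208 (deleted 2), 178 (deleted 4) and 94.6 CPM in deleted 6 (-0.61 ± 0.36, adjusted p = 0.457). In each of these genes the groups did not overlap. Yars, for tyrosine, was alike in order, at 165 and 167 CPM (wild-type 1 and 3) against 144, 128 and 66.6 CPM (deleted 2, 4 and 6).

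Sars was the only cytosolic member with a positive log2 fold change across all 5 libraries. It charges serine and selenocysteine tRNAs (ENSMUSG00000068739.12; chromosome 3, 108424865 to 108445209, minus strand), and measured 191 and 202 CPM (wild-type 1 and 3) against 243, 222 and 261 CPM (deleted 2, 4 and 6), with deleted 6 the highest. For Sars edgeR gave a log2 fold change of 0.30 ± 0.18 (SE; adjusted p = 0.459), with a 95% interval from -0.15 to 0.76. Wars, the tryptophan enzyme, known to be induced by interferon, differed little between libraries, at 128 and 132 CPM (wild-type 1 and 3) against 130.1, 126 and 128 CPM (deleted 2, 4 and 6), with a log2 fold change of -0.03 ± 0.15 and a 95% interval from -0.42 to 0.37. Aars, for alanine, measured 381 and 408 CPM (wild-type 1 and 3), then 468 (deleted 2), 417 (deleted 4) and 294 CPM in deleted 6, so its log2 fold change was -0.01 with all 5 libraries and 0.18 without deleted 6. A stretch of 1326 bases, or 23.1% of the Aars mRNA, matches Exosc6, so the Aars level is uncertain too. Nars, the most abundant member per length, measured 459.6 and 449.6 CPM (wild-type 1 and 3), then 418 (deleted 2), 459.8 (deleted 4) and 270.4 CPM in deleted 6. Wars, Aars, Yars, Iars, Farsa and Rars were picked for description after their values were seen.

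**Figure D3:**
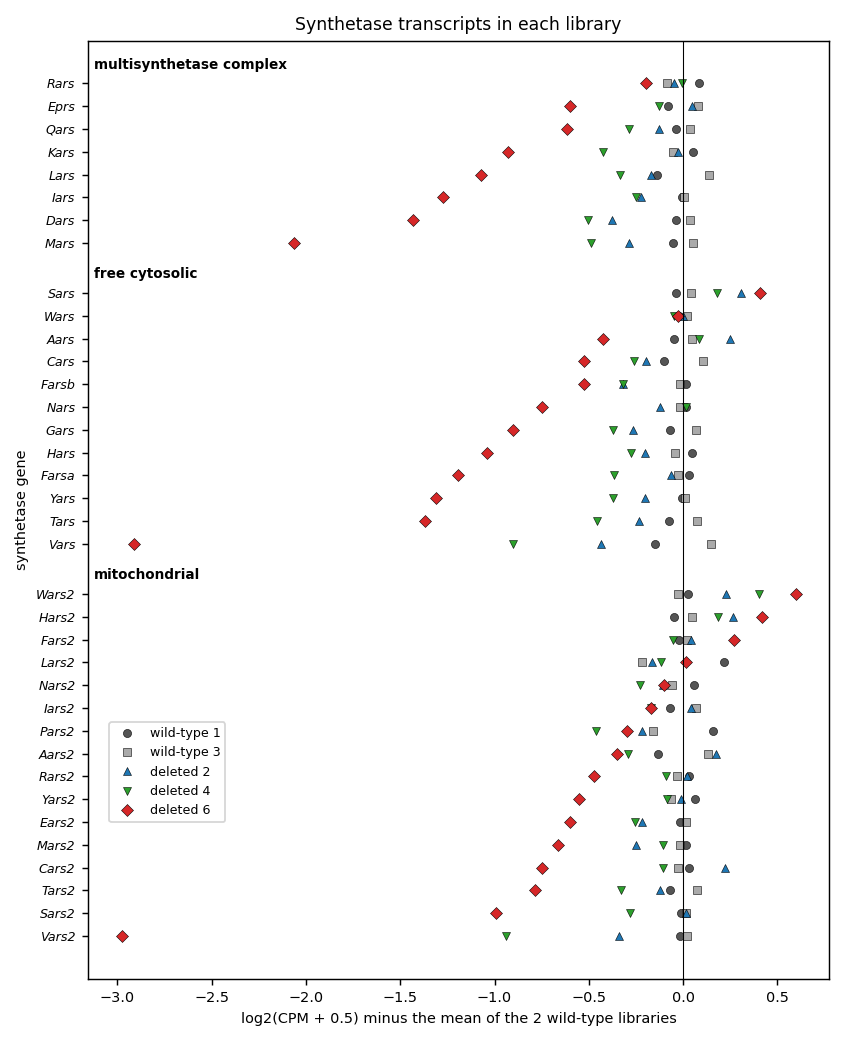
Difference of each synthetase transcript from the wild-type mean, as log2(CPM + 0.5), in each of the 5 libraries, by group; each point is 1 library. Deleted 6 is the lowest library in 27 of 36 genes and the highest in 4 (Sars, Wars2, Hars2 and Fars2), and Vars and Vars2 lie farthest to the left. These shares were not counted over all genes.

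In deleted 6 alone, 9 of the 20 cytosolic members and 1 of the 16 mitochondrial members were lower than the wild-type mean by more than 1 on the log2(CPM + 0.5) scale, where 16.0% of all genes tested were. No member was higher by that much, where 16.4% of genes were. The 9 were Vars, Mars, Dars, Tars, Yars, Iars, Farsa, Lars and Hars, and the 1 was Vars2, with Kars at -0.93 and Sars2 at -0.99 just short. In deleted 2 no member passed this size either way, where 4.44% of genes did downward and 6.74% upward, and in deleted 4 none did, where 3.9% and 7.2% did. Taken as differences from wild-type, the medians for deleted 2, 4 and 6 were -0.18, -0.30 and -0.92 over cytosolic members and 0.00, -0.14 and -0.41 over mitochondrial members. Over all genes it was -0.01, -0.00 and -0.03. These are single libraries, with no replicate check.

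Mitochondrial synthetases charge tRNAs for the few proteins of the respiratory chain that mitochondria make themselves. Vars2, for valine (ENSMUSG00000038838.14; chromosome 17, 35655634 to 35667592, minus strand), measured 33.1 and 34.0 CPM (wild-type 1 and 3), then 26.4 (deleted 2), 17.3 (deleted 4) and 3.82 CPM (169 counts) in deleted 6. For Vars2 edgeR gave a log2 fold change of -1.08 ± 0.75 (adjusted p = 0.504), and -0.61 ± 0.22 when deleted 6 was left out (adjusted p = 0.132). Vars2 thus ordered the libraries as Vars did, and deleted 6 was at 11.4% of the wild-type mean in Vars2 and at 13.1% in Vars. The Vars to Vars2 ratio per kilobase was 12.6 and 15.0 in wild-type and 12.9, 14.2 and 15.9 in deleted 2, 4 and 6. An antisense gene, Gm20483, overlaps Vars2 and cannot be told apart without strand.

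Most other mitochondrial members differed by less. Tars2, for threonine, measured 77.5 and 85.6 CPM (wild-type 1 and 3) against 74.8, 64.8 and 47.1 CPM (deleted 2, 4 and 6) (log2 fold change -0.39 ± 0.24, edgeR adjusted p = 0.475). Ears2, for glutamate, measured 15.8 and 16.2 CPM (wild-type 1 and 3) against 13.7, 13.3 and 10.4 CPM (deleted 2, 4 and 6) (-0.36 ± 0.23, adjusted p = 0.488). Pars2, for proline, measured 11.8 and 9.35 CPM (wild-type 1 and 3) against 8.97, 7.47 and 8.43 CPM (deleted 2, 4 and 6) (-0.35 ± 0.26, adjusted p = 0.526), and deleted 6 was not its lowest library. Mars2, for methionine, measured 22.4 and 21.9 CPM (wild-type 1 and 3) against 18.5, 20.5 and 13.8 CPM (deleted 2, 4 and 6) (-0.33 ± 0.25, adjusted p = 0.530). In these 4 genes, as in Vars2 and Nars2, the deleted libraries lay below both wild-type libraries. Lars2 measured 219 and 162 CPM (wild-type 1 and 3) against 168, 174 and 190.0 CPM (deleted 2, 4 and 6), with the spread between the wild-type libraries wider than that of the deleted ones.

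Hars2 and Wars2 were higher in every deleted library than in both wild-type libraries, without passing the test. Hars2, for histidine (chromosome 18, 36783008 to 36792562, plus strand), measured 34.5 and 36.9 CPM (wild-type 1 and 3) against 42.9, 40.6 and 47.9 CPM (deleted 2, 4 and 6) (log2 fold change 0.29 ± 0.18, edgeR adjusted p = 0.460). Its cytosolic partner Hars starts beside it on the opposite strand, with 198 bases in common. Hars measured 139 and 130.2 CPM (wild-type 1 and 3) against 117, 111 and 65.0 CPM (deleted 2, 4 and 6). The Hars to Hars2 ratio per kilobase was 6.73 and 5.92 in wild-type, 4.55 and 4.57 in deleted 2 and 4, and 2.28 in deleted 6. Wars2, for tryptophan, was among the least abundant members, at 7.23 and 6.94 CPM (wild-type 1 and 3) against 8.39, 9.53 and 11.0 CPM (deleted 2, 4 and 6) (0.44 ± 0.26, adjusted p = 0.459). Serine showed the reverse of histidine, with a Sars to Sars2 ratio per kilobase of 3.39 and 3.51 in wild-type, 4.22 and 4.76 in deleted 2 and 4, and 9.28 in deleted 6. Over the 17 pairs, the ratio was lowest in deleted 6 in 11 and highest there in 4.

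Other genes that load or hold tRNAs are given beside the synthetases. Of the 3 scaffold proteins of the multisynthetase complex 0 were called with or without deleted 6, with Eef1e1 at a log2 fold change of -0.43 ± 0.29 and Aimp2 at -0.40 ± 0.30 (edgeR adjusted p = 0.498 and 0.527). Of 16 other aminoacylation and proofreading genes 0 were called in either fit, with a median of -0.21, and 8 had every deleted library below both wild-type libraries, where 23.7% of all genes did. Ptrh2, a peptidyl-tRNA hydrolase, measured 48.4 and 44.1 CPM (wild-type 1 and 3) against 33.7, 31.4 and 24.6 CPM (deleted 2, 4 and 6), and the groups did not overlap (log2 fold change -0.63 ± 0.21, edgeR adjusted p = 0.293).

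Lists for the steps after charging are given by compartment, and the difference between them was not tested. Of 7 cytosolic elongation factor genes 0 were called in either fit, with a median log2 fold change of -0.47, and Eef2 and Eif5a had -0.47 ± 0.31 and -0.58 ± 0.38 (edgeR adjusted p = 0.498 and 0.490). Of 9 mitochondrial translation factor genes 0 were called, with a median of -0.12, and Tsfm and Mtrf1 had -0.42 ± 0.29 and -0.24 ± 0.20 (adjusted p = 0.503 and 0.569). Of 77 tested mitochondrial ribosomal protein genes 0 were called with all 5 libraries, with a median of -0.18. Without deleted 6, 2 of the 77 were called lower, where 5.07% of all genes were. These were Mrpl33 and Mrpl44, which fell by 1.16 ± 0.14 and 0.65 ± 0.13 on the log2 scale (edgeR adjusted p = 0.00475 and 0.0260). Of 18 ribosome biogenesis genes 0 were called with all 5 libraries, with a median of -0.55. Wdr12 was at -0.77 ± 0.27 and Nhp2 at -0.49 ± 0.24 (edgeR adjusted p = 0.310 and 0.398). Without deleted 6, 1 of the 18 was called lower, a share near the 5.07% of all genes. It was Nop56, a nucleolar protein of ribosomal RNA processing, which fell by 0.60 ± 0.14 (edgeR adjusted p = 0.0340). Myc, which is known to induce many of these genes, measured 298 and 275 CPM (wild-type 1 and 3), then 184 (deleted 2), 133 (deleted 4) and 15.9 CPM in deleted 6, and fell by 0.84 ± 0.18 without deleted 6 (adjusted p = 0.0306). Its relatives Mycn and Mycl were scarce: Mycl had at most 1.15 CPM, and Mycn did not pass the filter.

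**Figure D4:**
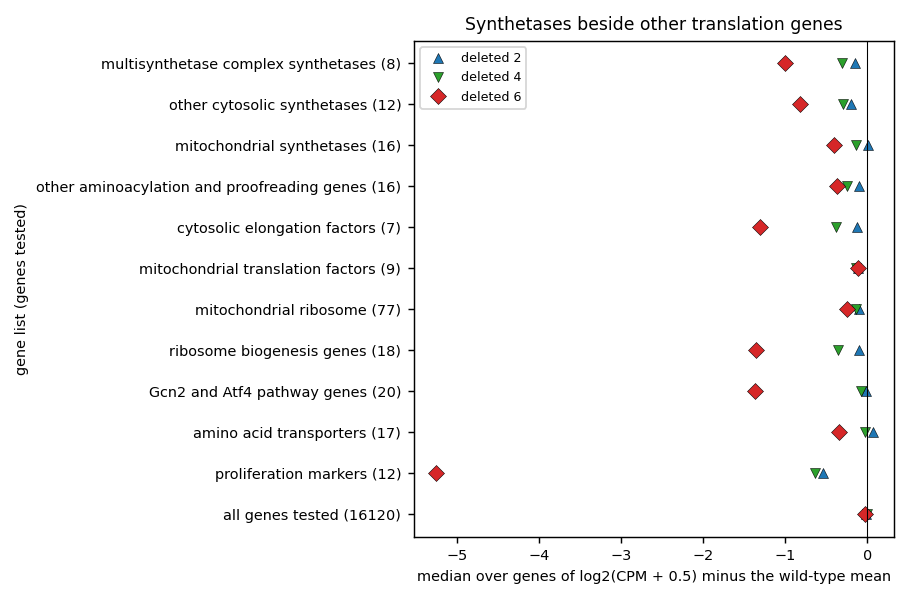
Median over the genes of each list of log2(CPM + 0.5) minus the wild-type mean, for deleted 2, 4 and 6, with the number of genes tested in brackets; each point is 1 library. In deleted 6 the proliferation markers lie lowest, at -5.25. The cytosolic elongation factors, ribosome biogenesis genes and Gcn2 and Atf4 pathway genes also lie below -1 there. The mitochondrial lists lie between -0.41 and -0.11 in deleted 6, and all genes at -0.03.

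Uncharged tRNA is known to activate the kinase GCN2 (Eif2ak4), which raises translation of ATF4, an inducer of many synthetases, transporters and amino acid enzymes. Of 20 pathway genes 0 were called with all 5 libraries. Leaving out deleted 6, edgeR called 2 of them higher and 4 lower, where it called 7.89% of all genes higher and 5.07% lower. Ddit3, a stress transcription factor, measured 15.3 and 13.2 CPM (wild-type 1 and 3) against 43.2, 61.5 and 63.5 CPM (deleted 2, 4 and 6), and rose by 1.89 ± 0.21 without deleted 6 (adjusted p = 0.00361). Trib3, a pseudokinase, measured 14.4 and 12.8 CPM (wild-type 1 and 3) against 46.6, 44.5 and 22.4 CPM (deleted 2, 4 and 6), and rose by 1.76 ± 0.16 (adjusted p = 0.00179). Asns, which makes asparagine, measured 234 and 248 CPM (wild-type 1 and 3), then 149 (deleted 2), 145 (deleted 4) and 25.7 CPM in deleted 6, and fell by 0.70 ± 0.13 (adjusted p = 0.0175). Pycr1, of proline synthesis, fell by 1.69 ± 0.21 (adjusted p = 0.00457).

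Of 17 amino acid transporter genes 0 were called with all 5 libraries, with a median log2 fold change of 0.16. Leaving out deleted 6, edgeR called 6 of them higher and 0 lower, again beside 7.89% and 5.07% of all genes. Slc7a11, the cystine importer, measured 41.5 and 23.3 CPM (wild-type 1 and 3) against 179, 217 and 145 CPM (deleted 2, 4 and 6). Slc3a2, the shared heavy chain of several transporters, measured 267 and 257 CPM (wild-type 1 and 3) against 544, 569 and 611 CPM (deleted 2, 4 and 6), and rose by 1.10 ± 0.14 without deleted 6 (edgeR adjusted p = 0.00462). Slc7a8, a carrier of neutral amino acids, rose by 2.31 ± 0.17 there (adjusted p = 0.00114). Whether the synthetases differed from these genes in their response was not tested.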

How the data were processed

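RNA was extracted with Trizol, and libraries were made by SMART-Seq v4 followed by Nextera XT (per the labels' protocols), then sequenced as single-end reads (per the design text). Neither kit marks strand. The submitters' processing notes name the mm10 genome, DESeq2 1.12.4, bcl2fastq 1.8.4 and, without a version, STAR. The sources used here give no annotation or counting settings.

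The authors deposited whole-number read counts for 46603 genes per library, with 5 further rows that name no gene, which were left out (reads without a feature 5.89% to 8.09%, multiply aligned reads 13.0% to 15.1%). The authors also deposited a normalized signal table of 27526 genes, which equals the counts divided by 1 size factor per library and gave the symbols. A log2-scale table was not used.

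Counts were tested with edgeR 4.0.16 (filterByExpr, TMM, glmQLFit and glmQLFTest; R 4.3.3) on 16120 genes, with 3 residual degrees of freedom. Benjamini-Hochberg adjustment ran over all genes tested, and a gene was called at an adjusted p under 0.05. The SE is the size of the log2 fold change over the square root of F. DESeq2 1.42.0 and limma 3.58.1 (voom with sample quality weights) were alternatives, with other scaling, other filters, single libraries left out and lane 4 alone. The edgeR fit was tested on simulated counts. The fewest counts in any library were 2443 in a cytosolic and 169 in a mitochondrial member. Counting error was not set against library spread. PCR copies were not told apart.

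Coordinates and mRNA lengths (longest principal transcript) came from GENCODE M21 on GRCm38, the build of mm10, with all 36 members found. Matches to other transcripts were searched with BLAST at 95% identity over at least 50 bases.

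Members and lists were chosen with earlier results of these data known. Values in full are given for the 8 cytosolic and 6 mitochondrial members with the smallest unadjusted p, the 4 and 3 with the smallest p without deleted 6, the extremes per length in each compartment, and from each pathway list up to 2 called genes each way or the 2 with the smallest p. One gene that this rule names is not reported here.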

Additional observations from a re-analysis of the deposited data

How the results depend on the processing

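No paired analysis was possible because the groups compared share no replicate numbers. In every one of the 11 alternatives run 0 of the 20 cytosolic and 0 of the 16 mitochondrial synthetases were called higher or lower. The lowest adjusted p was 0.0647, in limma-voom. There 8 members had an unadjusted p under 0.05, as did 5336 of the 16120 genes tested. The median log2 fold change stayed negative in each: from -0.61 to -0.22 over cytosolic and from -0.32 to -0.08 over mitochondrial members with single libraries left out, and -0.23 and -0.11 in lane 4 alone. Leaving out deleted 6 brought both medians nearest to 0, and leaving out deleted 2 took both farthest from it. Of 396 combinations of a member and an alternative 379 kept the direction and 17, in 9 members, turned it. With all 5 libraries these 9 had log2 fold changes from -0.20 (Yars2) to 0.09 (Fars2). Aars turned to 0.10 with limma-voom, 4.59e-05 with no filter and 0.13 in lane 4. Lane 4 also turned Rars (0.0697), Rars2 (0.00718), Cars2 (0.11), Lars2 (0.0862), Yars2 (0.0241) and Fars2 (-0.0165), and limma-voom turned Fars2 (-0.0314). With single libraries left out Aars ran from -0.15 (without deleted 2) to 0.18 (without deleted 6), and was 0.0467 without wild-type 3. Cars2 ran from -0.40 (without deleted 2) to 0.0813 (without deleted 6). Aars2 ran from -0.33 (without deleted 2) to 0.00118 (without wild-type 3), and Wars from -0.0518 (without wild-type 1) to 0.000667 (without wild-type 3). Rars ran from -0.17 to 0.00226 and Lars2 from -0.30 to 0.13 (without wild-type 3 and 1 respectively). The count of called genes among all genes depended on the setting, from 0 higher and 0 lower with all 5 libraries in edgeR to 838 and 396 with DESeq2, 1230 and 947 with limma-voom, 163 and 115 with no filter on low counts, 211 and 131 in lane 4, and 1245 and 800 without deleted 6. With any other single library left out the counts were 0 and 0. The cause was not tested.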
